A study of Homo sapiens with 4 samples.

Results

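Ribosomal protein pseudogenes were followed in RNA from HEK293 cells, a human line derived from embryonic kidney. Symbols that start with RPL or RPS and end in P and a number, other than the genes RPLP0, RPLP1 and RPLP2, were taken when their counts summed to at least 40 over the 4 libraries. This gave 171 pseudogenes of 48 parent genes, out of 1601 such symbols and 78686 counted features. The symbol of RPS19BP1, a gene for a binding protein, has the same letters and was left out. Of the other symbols, 1007 had 0 counts and 423 had between 1 and 39. The pseudogenes were thus chosen by their summed counts, so levels near the minimum are description only. RPL14P3, RPL21P134 and RPL7P50 each had 40 counts and were kept, while RPS15P4 and RPLP0P10 with 39 and RPL21P37 with 38 were not.

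A processed pseudogene is a copy of a spliced mRNA that was reverse transcribed and put back into the genome, usually by the enzymes of LINE-1 elements. It has no introns and seldom its parent's promoter, and changes in its sequence collect over time. The human genome holds many copies of ribosomal protein mRNAs, which are short and abundant. Young copies differ so little from the parent that a short read can match both.

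The KO libraries came from HEMK1 KO cells, which according to the extract protocol were clone 1F8, grown from a sorted cell after transfection with a pool of Cas9 plasmids for different guides. HEMK1 is a methyltransferase whose substrates, per the series title, are the release factors of mitochondrial translation. The other libraries came from wild-type (WT) cells of the same line, and there were 2 libraries per genotype, called biological replicates in the labels without further detail. P-values therefore measure only how much these libraries vary, and HEMK1 loss cannot be told apart from other traits of the clone.

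Total gene counts were 2856784 and 3202039 in the KO libraries and 2476471 and 2671594 in the WT libraries, and 10670 genes passed the filter for testing. HEMK1 itself had 1 and 7 counts in KO and 6 and 9 in WT, too few to check the labels. Of 8 genes listed for HEK293 cells, 6 had counts, with a sum of 247 and 212 CPM (counts scaled to the library's size) in KO and 308 and 306 CPM in WT, while LHX1 and PAX2 were at 0 in all libraries. The 6 listed blood genes summed to 3.15 and 8.74 CPM in KO and 0 in both WT libraries. Fibroblast genes (3 of 5 with counts) summed to 44.1 and 32.2 CPM in KO and 29.1 and 25.5 CPM in WT, epithelial genes (2 of 3) to 1.75 and 4.69 CPM in KO and 1.21 and 1.50 CPM in WT, and hepatocyte genes (1 of 3) to at most 0.35 CPM. Their part in the results was not tested. In bulk RNA, fewer cells that hold a transcript and less of it per cell cannot be told apart. WT replicate 1 had the highest share of counts on pseudogenes, so the main counts and medians are also given without it. By the chi-square of raw counts per degree of freedom, the libraries did not group by genotype. This measure grows with depth and weighs abundant genes most, so it does not describe all genes alike. It was 4.90 and 4.74 for KO replicates 1 and 2 against WT replicate 1 and 7.42 and 7.39 against WT replicate 2. Between the KO libraries it was 5.38 and between the WT libraries 5.01.

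The 171 pseudogenes held 0.365% and 0.376% of gene counts in the KO libraries, against 0.733% and 0.492% in the WT libraries. Both KO libraries lay below both WT libraries, and the gap between the WT libraries was wider than that between the KO libraries. The 87 cytosolic ribosomal protein genes held 8.73% and 9.42% of counts in KO and 10.2% and 8.09% in WT, so that here the genotypes overlapped. Per 100 counts on ribosomal protein genes there were 4.19 and 3.99 pseudogene counts in KO, against 7.19 and 6.07 in WT. With 2 libraries a side, an exact two-sided permutation test cannot go below p = 0.333. Of all symbols of this kind, 365 and 364 had at least 1 count in the KO libraries and 458 and 437 in the WT libraries. The WT libraries, with the smaller total counts, thus held counts on more of them. Of all counted features, 20530 and 20565 had at least 1 count in KO and 20575 and 21639 in WT. Both WT libraries were thus higher there too. Other processed pseudogenes held 0.528% and 0.554% of counts in KO and 0.861% and 0.624% in WT.

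**Figure D1:**
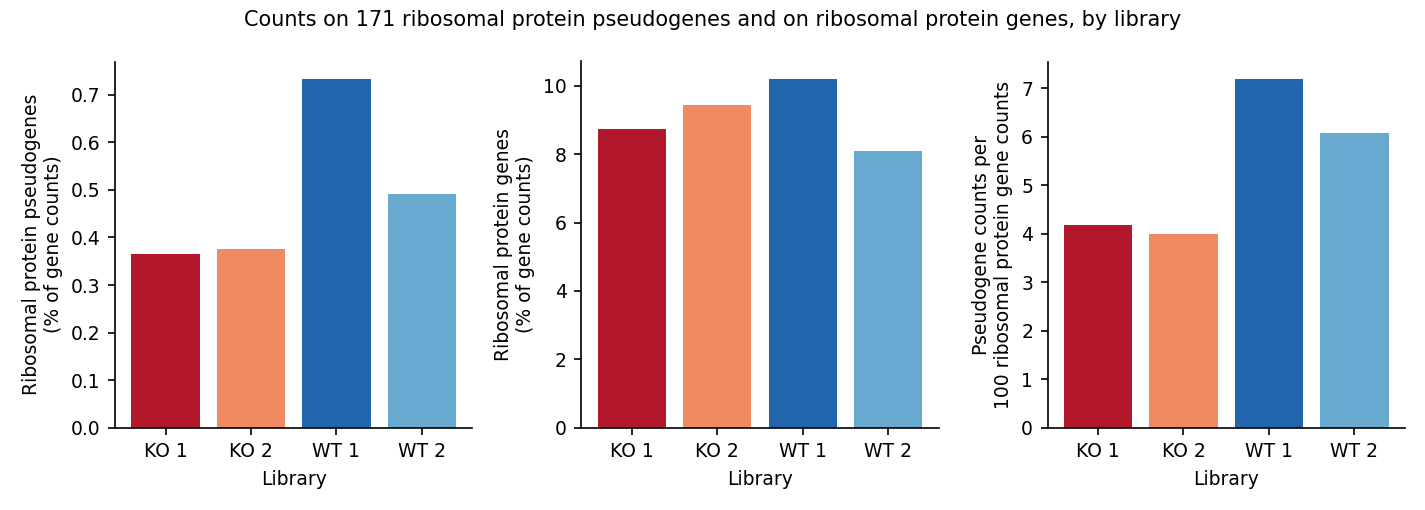
Share of gene counts on the 171 ribosomal protein pseudogenes (left), share on ribosomal protein genes (middle) and pseudogene counts per 100 ribosomal protein gene counts (right), 1 bar per library. The pseudogene share was 0.365% and 0.376% in KO and 0.733% and 0.492% in WT, while the ribosomal protein genes overlapped between genotypes.

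Most of the 171 were short, intronless copies: 168 had the type processed pseudogene in GENCODE 29, RPL36AP21 was typed as a transcribed processed pseudogene, RPS27AP5 as protein coding, and RPL23AP7 had no entry. Parents of the large subunit gave 117 of them (29 parents) and parents of the small subunit 54 (19 parents). RPL7, a protein of the large subunit, had the most with 17, followed by RPL21 with 14 and by RPS3A and RPL7A with 9 each. Summed counts had a median of 131 and a maximum of 2514, and 10 pseudogenes held 33.25% of the counts. Per length, the mean level ran between 4.20 CPM per kb for RPL4P2 and 489 CPM per kb for RPL23AP42, with a median of 23.9.

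Most copies were close to their parents. Aligned to the parent's coding transcripts, 169 pseudogenes had between 67.2% and 100% identity, with a median of 96.6%. Identity holds for the best aligned stretch only, which covered 30.1% of RPL7P21, 26.1% of RPL7P22 and 27.4% of RPL36AP21. Reads of near-identical copies may be assigned to the wrong copy or dropped, so every level here is uncertain in that way. As a measure of this, the share of 75-base stretches found in no other annotated transcript had a median of 86.9%; it was 100% for 23 pseudogenes and 0% for 5, which were the 5 with a sequence identical to the parent (RPL21P16, RPL36AP37, RPL39P3, RPL41P1 and RPL41P5). Copies elsewhere in the genome that are not annotated were not counted in this share. Across 164 pseudogenes that share these libraries, identity and counts as a percentage of the parent's counts had a Spearman rho of 0.574, a description only.

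The sequences below show how pseudogenes that differed between genotypes can be told from their parents. They come from GENCODE 29 transcripts (GRCh38), positions count from 1 at the first base of the parent's coding sequence, and capitals in a copy mark the bases that differ from the parent. The first set is RPS26, a protein of the small subunit, with RPS26P20 (chr2:171374931-171375278, minus strand), which had 0 counts in both KO libraries, and RPS26P11 (chrX:72044545-72044892, plus strand), which had 1. Over coding bases 1 to 240 they carry 8 and 7 differences, of which T24C, G29A and C167T are in both.
RPS26: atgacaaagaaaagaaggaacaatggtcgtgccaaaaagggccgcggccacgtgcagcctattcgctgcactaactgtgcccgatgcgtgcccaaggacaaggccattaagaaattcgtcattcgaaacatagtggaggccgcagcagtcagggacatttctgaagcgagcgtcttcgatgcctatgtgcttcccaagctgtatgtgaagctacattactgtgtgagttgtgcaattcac
RPS26P20: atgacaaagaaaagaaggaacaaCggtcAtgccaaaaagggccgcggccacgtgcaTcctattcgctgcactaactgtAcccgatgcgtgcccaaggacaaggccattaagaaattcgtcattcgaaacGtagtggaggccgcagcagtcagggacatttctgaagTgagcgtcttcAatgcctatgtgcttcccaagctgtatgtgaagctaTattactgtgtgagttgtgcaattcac
RPS26P11: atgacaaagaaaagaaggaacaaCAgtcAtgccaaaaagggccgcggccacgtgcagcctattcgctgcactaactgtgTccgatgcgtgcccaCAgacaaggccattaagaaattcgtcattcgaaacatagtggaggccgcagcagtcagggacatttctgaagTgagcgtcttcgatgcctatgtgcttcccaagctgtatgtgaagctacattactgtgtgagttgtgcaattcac

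RPL37P2 (chr11:67682772-67683058, minus strand) is a copy of RPL37, a protein of the large subunit, and had the largest fold among called pseudogenes with counts in every library. Over coding bases 1 to 240 it carries 12 differences. C166T turns a codon into the stop TGA, and the longest reading frame was 168 bases, 57.14% of the parent's coding length. RPS23P8 (chrX:70962964-70963293, plus strand) copies RPS23, a protein near the decoding site of the small subunit. Its annotated span starts at base 103 of the coding sequence, and over bases 103 to 342 it differs at 3 positions, and 46.5% of its 75-base stretches were found in no other annotated transcript.
RPL37: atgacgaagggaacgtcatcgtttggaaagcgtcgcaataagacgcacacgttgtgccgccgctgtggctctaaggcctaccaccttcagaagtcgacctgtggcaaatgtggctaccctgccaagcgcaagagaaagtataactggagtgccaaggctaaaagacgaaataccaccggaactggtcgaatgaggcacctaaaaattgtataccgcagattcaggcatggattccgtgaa
RPL37P2: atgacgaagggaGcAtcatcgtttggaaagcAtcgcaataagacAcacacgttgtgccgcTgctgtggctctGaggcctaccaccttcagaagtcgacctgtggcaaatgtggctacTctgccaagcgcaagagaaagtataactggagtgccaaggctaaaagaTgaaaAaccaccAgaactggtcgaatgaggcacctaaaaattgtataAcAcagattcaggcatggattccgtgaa
RPS23: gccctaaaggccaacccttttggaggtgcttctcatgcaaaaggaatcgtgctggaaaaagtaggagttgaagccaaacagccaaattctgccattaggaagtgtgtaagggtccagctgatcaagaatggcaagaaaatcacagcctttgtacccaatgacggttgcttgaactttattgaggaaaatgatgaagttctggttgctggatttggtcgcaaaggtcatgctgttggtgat
RPS23P8: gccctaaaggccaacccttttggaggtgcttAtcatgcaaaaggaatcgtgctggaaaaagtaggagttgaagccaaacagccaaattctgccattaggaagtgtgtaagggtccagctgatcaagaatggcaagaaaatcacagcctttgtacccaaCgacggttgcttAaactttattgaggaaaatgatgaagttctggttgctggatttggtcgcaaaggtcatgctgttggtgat

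RPL41P1 (chr20:21755270-21755350, plus strand) and RPL41P5 (chr12:93083598-93083675, minus strand) are shown because both KO libraries were above both WT libraries for them. RPL41 encodes a very short basic peptide of the large subunit. Both copies hold all 78 bases of its coding sequence with 0 differences, so the line below stands for all 3 and the counts cannot be assigned with certainty.
RPL41: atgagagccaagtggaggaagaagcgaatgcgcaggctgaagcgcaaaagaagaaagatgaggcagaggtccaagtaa

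KO and WT were then compared gene by gene with edgeR's quasi-likelihood test over all 10670 genes, and a gene was called at a Benjamini-Hochberg adjusted p under 0.05. Of the 166 pseudogenes that passed the filter, 13 were called lower in KO and 0 higher; over all tested genes 0.281% were called lower and 0.0469% higher. Without adjustment, 70 were lower and 3 higher at p under 0.05, against 4.35% and 4.09% of all genes. DESeq2 called 16 lower and 0 higher. The median log2 fold change of the 166 was −0.70, with quartiles of −1.09 and −0.43, and 158 were below 0. The same median was −0.44 for 258 other processed pseudogenes, −0.10 for 82 ribosomal protein genes, 0.02 for 8483 protein-coding genes and 0.009 for all genes. RPL7P59, RPL21P134, RPL6P20, RPL22P2 and RPS27AP1 missed the filter. Without WT replicate 1, every call was lost and the median was −0.39. Without WT replicate 2 the median was −1.01, and without KO replicate 1 or 2 it was −0.65 or −0.86.

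**Figure D2:**
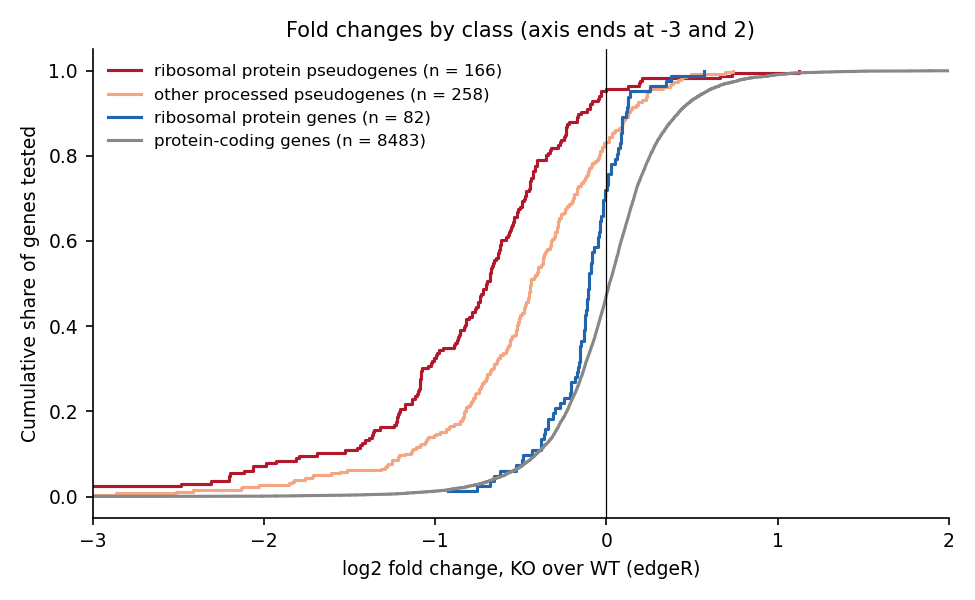
Cumulative share of tested genes (vertical axis) by log2 fold change of KO over WT from edgeR (horizontal axis, drawn between −3 and 2) for 4 classes of genes. The curve of the 166 ribosomal protein pseudogenes lies farthest to the left over most of its range, with a median of −0.70 against −0.44 for other processed pseudogenes and −0.10 for ribosomal protein genes.

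In CPM, both KO libraries lay below both WT libraries for 101 of the 166 and above them for 3, against 17.8% and 21.4% of all tested genes. With WT replicate 2 as the only WT library, both KO libraries were below it for 103 and above it for 29, against 33.4% and 36.5% of all tested genes. With WT replicate 1 as the only WT library they were below it for 151 and above it for 5, against 32.8% and 36.6%. The minimum on summed counts bears on these numbers. Of the 171, 25 would not have reached 40 counts at 2 times their KO sum and 0 at 2 times their WT sum, and over the other 146, all tested, the median was −0.65. Of the 13 called, 9 are among the 146 and 4 reached the minimum only through their WT counts.

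Of the 13 called pseudogenes, 3 had 0 counts in both KO libraries and RPS26P11 had 1 count in all of KO. These 4 are the ones kept only through WT, so the choice of pseudogenes bears on their difference, and their values are given as a description. RPS26P20 had 0 and 0 counts in KO and 22 and 24 in WT, at least 18.0-fold lower in KO against a floor of 3 counts over both libraries. RPL7P12, a copy of RPL7 on chromosome 2, had 0 and 0 counts in KO and 31 and 25 in WT, at least 21.9-fold lower in KO. RPS20P2 on chromosome 16 is a copy of the small-subunit gene RPS20, with 81.5% identity over 71.7% of its length. It had 0 and 0 counts in KO and 20 and 22 in WT, at least 16.4-fold lower in KO. In each of the 3 the WT libraries held similar counts, and the bounds cover counting error only.

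RPS26P11 had 1 and 0 counts in KO and 25 and 24 in WT, a KO to WT ratio of 0.0174 with a 95% exact interval of 0.000433 to 0.102. It lies on the X chromosome and overlaps NHSL2 on the same strand, and RPS26P20 overlaps METTL8 on the same strand. Both host genes had counts in every library: NHSL2 had 10 and 13 in KO and 12 and 16 in WT, and METTL8 21 and 42 in KO and 16 and 32 in WT. RPL7P12 overlaps an exon of the antisense gene CYP1B1-AS1, which had 2 and 0 counts in KO and 1 and 1 in WT. The other copies of RPS26 had counts in both KO libraries. RPS26P3 had 11 and 21 counts in KO and 15 and 13 in WT, so its genotypes overlapped; it is named after its values were seen. For the parent RPS26 the log2 fold change was 0.11 with an SE of 0.15 (adjusted p = 0.914 in edgeR).

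The other 9 called pseudogenes had counts in every library. RPL37P2 had 6.54 and 7.33 CPM in KO and 34.9 and 42.9 CPM in WT, with no overlap (log2 fold change −2.48 ± 0.27, where ± is the SE, and edgeR adjusted p = 0.0025). All of its 75-base stretches were unique among annotated transcripts, and its parent RPL37 had 0.05 ± 0.18. RPL17P18, a copy of RPL17, whose protein lines the exit tunnel of the large subunit, had 6.89 and 8.92 CPM in KO and 41.0 and 37.8 CPM in WT (log2 fold change −2.31 ± 0.26, edgeR adjusted p = 0.0027). Its reading frame of 555 bases was as long as the parent's. RPS15AP1, a copy of RPS15A in the small subunit, had 7.23 and 10.8 CPM in KO and 48.8 and 34.9 CPM in WT (log2 fold change −2.20 ± 0.29, edgeR adjusted p = 0.00702). RPS15A itself had a log2 fold change of −0.53 ± 0.15 and was not called (adjusted p = 0.315).

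RPS7P3 copies the small-subunit gene RPS7 and overlaps PCNX2 on the same strand. It had 4.82 and 5.74 CPM in KO and 21.8 and 24.2 CPM in WT (log2 fold change −2.11 ± 0.31, edgeR adjusted p = 0.0106). Its host PCNX2 had 59 and 54 counts in KO and 51 and 50 in WT. RPS27P29, a copy of RPS27, had 4.48 and 4.14 CPM in KO and 20.5 and 15.8 CPM in WT (log2 fold change −2.06 ± 0.35, edgeR adjusted p = 0.0306). RPS27AP5, a copy of RPS27A, the gene that encodes ubiquitin fused to a ribosomal protein, had 9.98 and 9.24 CPM in KO and 43.1 and 30.5 CPM in WT (log2 fold change −1.93 ± 0.27, edgeR adjusted p = 0.0102). The annotation types it as protein coding, and it holds a frame of 471 bases, the full coding length of RPS27A. In all 3 the genotypes did not overlap.

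The remaining called pseudogenes were more abundant per length and had smaller folds. RPS13P2, a copy of the small-subunit gene RPS13, had 33.7 and 34.7 CPM in KO and 108 and 77.8 CPM in WT (log2 fold change −1.44 ± 0.21, edgeR adjusted p = 0.0102). RPS23P8 had 64.4 and 66.3 CPM in KO and 190 and 137 CPM in WT (log2 fold change −1.32 ± 0.18, edgeR adjusted p = 0.00949). RPL7P9, with an identity of 99.7% to RPL7, had 147 and 141 CPM in KO and 337 and 240 CPM in WT (a KO to WT fold of 0.499, edgeR adjusted p = 0.0283). The parents RPS13, RPS23 and RPL7 had log2 fold changes of −0.05, −0.09 and 0.12 and were not called. The 13 lie on 8 chromosomes and copy 11 parents, and 7 of them have at least 90% unique 75-base stretches. Leaving out WT replicate 1 kept the direction of all 13 and lost every call, with log2 fold changes between −0.74 and −7.75.

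**Figure D3:**
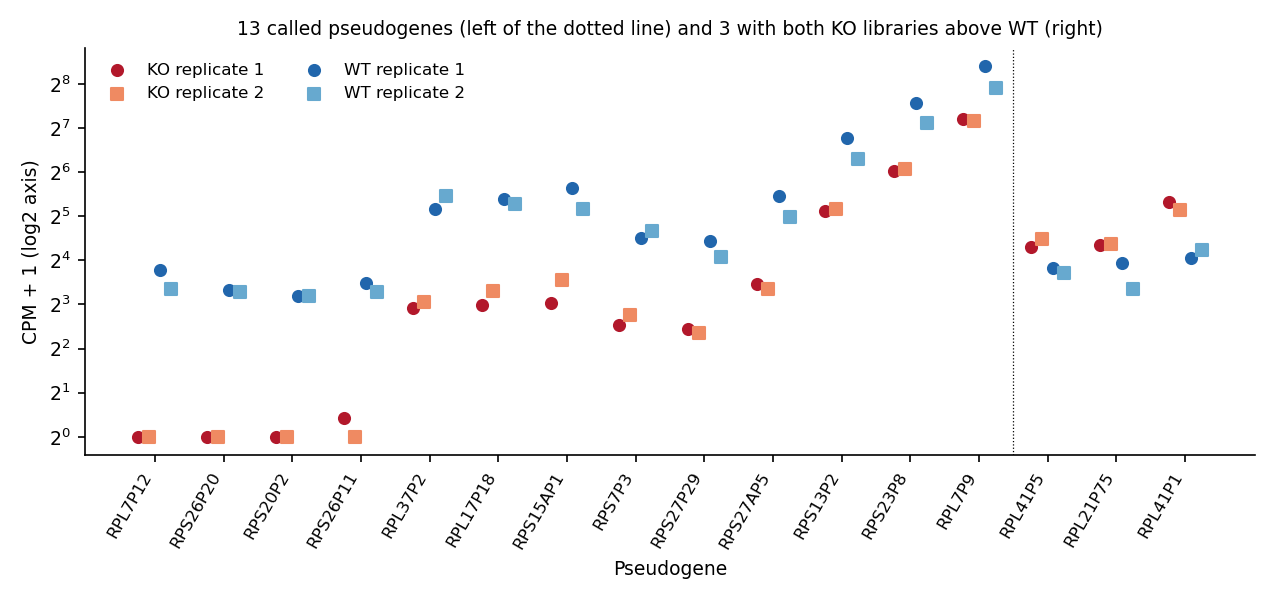
CPM + 1 (log2 axis) in each library for the 13 pseudogenes called lower in KO and, right of the dotted line, the 3 whose KO libraries both lay above both WT libraries. RPL7P12, RPS26P20 and RPS20P2 sit at 0 CPM in both KO libraries, and RPL41P1 reaches 39.2 and 34.4 CPM in KO against 15.6 and 18.0 CPM in WT.

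The authors' deposited table holds DESeq2 results for the same libraries, so it is no independent check of the calls. It called 11 of these 13. In all, the authors' deposited table called 16 of the 171 lower in KO and 0 higher at an adjusted p under 0.05, against 0.242% of its genes called lower. These are the same numbers as in the DESeq2 run given above. The other 5 in the authors' deposited table were RPS27P3, RPS18P5, RPL36AP37, RPL7P26 and RPL21P16, of which RPL7P26 and RPL21P16 are named only after their values were seen.

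Higher levels in KO were few. RPL41P1 had 39.2 and 34.4 CPM in KO and 15.6 and 18.0 CPM in WT, and missed the threshold (log2 fold change 1.13 ± 0.23, edgeR adjusted p = 0.0850). RPL41P5 had 18.6 and 21.3 CPM in KO and 13.1 and 12.1 CPM in WT (log2 fold change 0.66 ± 0.27, edgeR adjusted p = 0.522). The parent RPL41 had 862 and 878 CPM in KO and 738 and 627 CPM in WT, and its log2 fold change was 0.35 ± 0.14 (edgeR adjusted p = 0.519). RPL21P75, with 99.8% identity to the large-subunit gene RPL21, had 19.3 and 19.8 CPM in KO and 14.4 and 9.17 CPM in WT (log2 fold change 0.74 ± 0.30, edgeR adjusted p = 0.514). For these copies both KO libraries lay above both WT libraries. RPS3AP6 and RPL21P1 had log2 fold changes of 0.21 ± 0.36 and 0.19 ± 0.41, and their genotypes overlapped.

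The 10 pseudogenes with the most counts fell into those with lower levels in both KO libraries and those whose genotypes overlapped. RPL23AP42, a copy of RPL23A, a protein at the exit of the tunnel, had 167 and 177 CPM in KO and 352 and 226 CPM in WT (log2 fold change −0.75 ± 0.19, edgeR adjusted p = 0.236). RPLP0P6, a copy of the stalk protein gene RPLP0, had 109 and 124 CPM in KO and 230 and 143 CPM in WT. RPL4P4 had 106 and 108 CPM in KO and 207 and 134 CPM in WT. In these, the KO libraries were close together and WT replicate 1 was the highest. RPS18P5, a copy of the small-subunit gene RPS18, had 45.4 and 100.4 CPM in KO and 183 and 156 CPM in WT, with the KO libraries far apart. With RPL7P9 and RPS23P8, these made 6 of the 10 in which both KO libraries lay below both WT libraries.

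For the other 4 the genotypes overlapped. RPS3AP26 had 169 and 213 CPM in KO and 328 and 186 CPM in WT. RPL7P1 had 146 and 137 CPM in KO and 220 and 114 CPM in WT. RPL7AP6 had 116 and 128 CPM in KO and 208 and 119 CPM in WT. In these 3, WT replicate 1 was the highest library, WT replicate 2 was at or near the lowest, and the log2 fold changes of −0.43, −0.24 and −0.42 turned to 0.04, 0.31 and 0.03 without WT replicate 1. RPS3AP6 had 193 and 109 CPM in KO and 173 and 88.1 CPM in WT, with replicate 1 the higher in both genotypes.

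Summed by parent, both KO libraries lay below both WT libraries for 37 of 48 families and above for 1, RPL41, while 10 overlapped. Of all tested genes, taken singly and not summed, 17.8% lay below and 21.4% above. The log2 ratio of the summed CPM had a median of −0.75 and ran between −2.25 for RPS19, with 1 pseudogene, and 0.95 for RPL41. Of the 11 families with at least 5 pseudogenes (94 in all), 10 had lower sums in both KO libraries. Without WT replicate 1, the KO sums were below in 38 of 48 families and above in 5, with a median log2 ratio of −0.46, and below in 10 of the 11 large families. Single genes over all tested were then below in 33.4% and above in 36.5%. RPL7 copies summed to 460 and 479 CPM in KO and 1001 and 612 CPM in WT, a log2 ratio of −0.78. RPS26 copies summed to 15.8 and 24.2 CPM in KO and 59.9 and 44.0 CPM in WT, a log2 ratio of −1.38. RPL36A copies summed to 78.8 and 64.4 CPM in KO and 241 and 132 CPM in WT, also with a log2 ratio of −1.38.

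RPS3A, whose protein binds initiation factors on the small subunit, was the exception among the large families: its 9 copies summed to 545 and 516 CPM in KO and 866 and 516 CPM in WT. WT replicate 2 there lay at the level of the KO libraries. The most abundant copies of the other large families that were not named above all had log2 fold changes below 0, and edgeR called none, while DESeq2 called RPL36AP37 and RPS27P3. RPL36AP37 had 178 and 124 counts in KO and 427 and 259 counts in WT (log2 fold change −1.42 ± 0.32, adjusted p = 0.242 in edgeR and 0.00638 in DESeq2). RPS27P3 had 44.1 and 58.0 CPM in KO and 122 and 94.3 CPM in WT (log2 fold change −1.08 ± 0.20, adjusted p = 0.0507 in edgeR and 0.0328 in DESeq2). RPL21P28, RPS26P58, RPSAP19, RPL17P6 and RPL5P34 had log2 fold changes of −0.72, −1.11, −0.54, −0.40 and −0.35. In RPSAP19, RPL17P6 and RPL5P34 the genotypes overlapped.

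**Figure D4:**
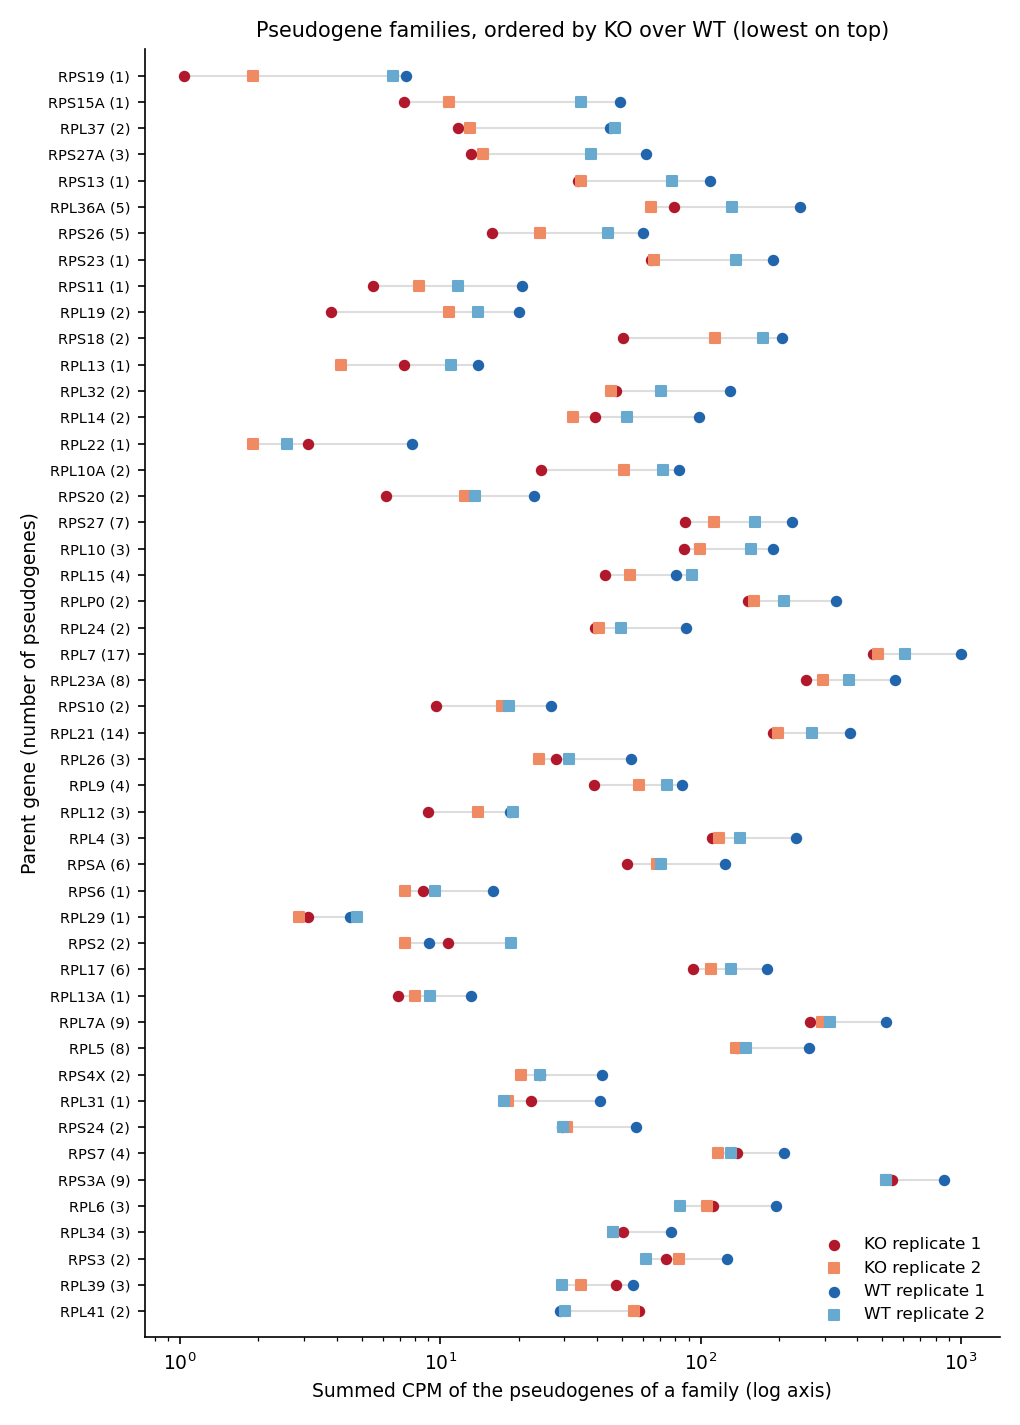
Summed CPM of the pseudogenes of each parent gene (log axis), 1 point per library, with families ordered by the ratio of KO to WT and the number of pseudogenes in brackets. The KO points lie left of the WT points in 37 of 48 families, and RPL41, at the bottom, is the reverse.

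The WT libraries also differed from each other. WT replicate 2 was lower than WT replicate 1 in CPM for 154 of the 171, with a median log2 ratio of −0.58, whereas 49.6% of all tested genes were lower there and their median was 0.005. With 1 library a side there is no test; the 95% interval of the ratio from counting error lay below 1 for 84 pseudogenes and above 1 for 2. RPL7P1 had 310 counts in WT replicate 2 and 536 in WT replicate 1. RPL10P3, named after its values were seen and with an interval above 1, had 41 counts in WT replicate 2 and 11 in WT replicate 1. Ribosomal protein genes had a median of −0.42 between these libraries and other processed pseudogenes −0.44. Between the KO libraries, the median of the pseudogenes was 0.18 for replicate 2 over replicate 1.

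Pairs across genotypes gave the size of the difference against each WT library. Against WT replicate 1 the median log2 ratio was −1.07 for KO replicate 1 and −0.85 for KO replicate 2. Against WT replicate 2 it was −0.50 for KO replicate 1, with 132 of 171 pseudogenes lower, and −0.24 for KO replicate 2, with 113 lower. Of all tested genes, 50.22% and 46.75% were lower in these pairs. For the other processed pseudogenes the medians against WT replicate 2 were −0.25 and −0.005, with 63.95% and 50% lower. These pairs share libraries, so they are not independent of each other.

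The ribosomal protein genes themselves were higher in WT replicate 1 than in WT replicate 2, and the level of each pseudogene was therefore also set against its parent in the same library, as a difference of log2(CPM + 1). The median difference was −7.12 and −6.96 in the KO libraries and −6.28 and −6.32 in the WT libraries. These medians lay close together for the WT libraries. Copy by copy, however, WT replicate 2 minus WT replicate 1 had a median of −0.20, against 0.03 for KO replicate 2 minus KO replicate 1. The median change, KO minus WT, was −0.70 on the log2(CPM + 1) scale, 161 of 171 were below 0, and in 125 both KO libraries lay below both WT libraries. In 4 both KO libraries lay above, RPL21P75, RPL26P19, RPL41P1 and RPL41P5. RPL26P19 is named after its values were seen, and its own level was not higher in KO. Its parent RPL26 was lower in KO (log2 fold change −0.92 ± 0.18, edgeR adjusted p = 0.0617). The log2 fold changes of the RPL26 copies were all at or below −0.43. For 168 other processed pseudogenes with a coding parent by symbol the median change was −0.40, and 51.2% had both KO libraries below and 3.57% above.

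By pair of libraries, the change relative to the parent had a median of −0.87 and −0.77 for KO replicates 1 and 2 against WT replicate 1, and of −0.59 and −0.55 against WT replicate 2. WT replicate 2 minus WT replicate 1 gave −0.20 and KO replicate 2 minus KO replicate 1 gave 0.03. For the other processed pseudogenes the medians against WT replicate 2 were −0.26 and −0.15, and WT replicate 2 minus WT replicate 1 gave −0.38. The parents RPL17, RPL36A and RPS10 had only 13, 45 and 19 counts in all and share exons with readthrough genes, and leaving out their 13 pseudogenes gave a median change of −0.69 (this alternative was chosen after seeing the data).

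**Figure D5:**
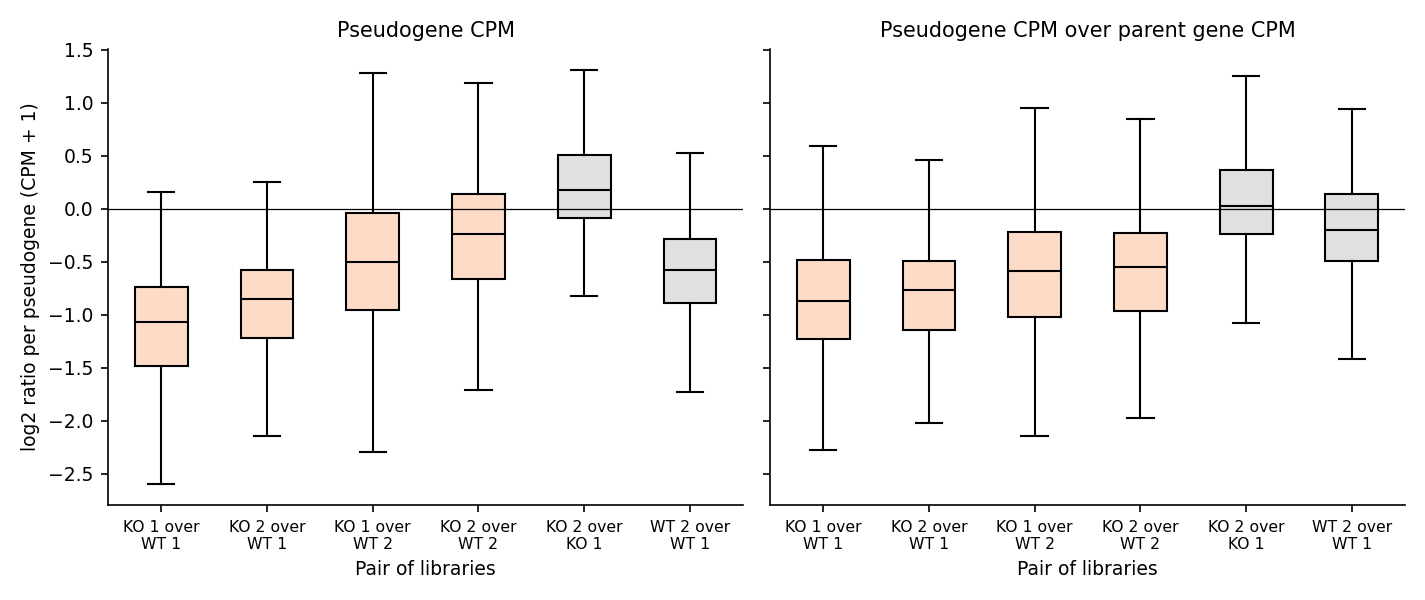
Log2 ratio per pseudogene between pairs of libraries, for CPM (left) and for CPM over the parent's CPM (right), with 1 CPM added, as boxes of the median and quartiles and whiskers to 1.5 times the box. The 4 pairs of KO over WT have medians below 0 in both panels, and WT replicate 2 over WT replicate 1 has a median of −0.58 on the left and −0.20 on the right.

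Set out by how well a copy can be told from other transcripts, the median log2 fold change was −0.43 for 29 tested pseudogenes with under 50% unique 75-base stretches, −0.64 for 62 with 50% to 90%, and −0.83 for 74 with 90% or more. Calls numbered 2, 4 and 7 in these classes, which includes the 4 kept only through WT. Both KO libraries lay below both WT libraries for 14, 38 and 49 of them, against 17.8% of all tested genes. Across 165 pseudogenes, which share the 4 libraries, the fold change and the unique share had a Spearman rho of −0.244. With identity the rho was 0.101 (n = 164), with the parent's fold change 0.283 (n = 158) and with the summed counts 0.0732 (n = 166). None of these was tested. Without WT replicate 1 the medians of the classes were −0.17, −0.37 and −0.46.

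By subunit, the median was −0.67 for copies of small-subunit genes and −0.70 for copies of large-subunit genes. Calls numbered 9 among 53 tested small-subunit copies and 4 among 113 tested large-subunit copies, while 0.281% of all tested genes were called lower. RPS26P20, RPS26P11 and RPS20P2 of the small and RPL7P12 of the large subunit reached the minimum only through WT. The counts of calls here, also those by reading frame, are therefore a description. A reading frame of at least 95% of the parent's coding length was held by 65 of 170 pseudogenes, with a median of −0.70 and 5 calls. The other 105 had a median of −0.68 and 8 calls. By level, the medians were −0.74 for those with 40 to 99 summed counts, −0.65 with 100 to under 400 and −0.75 with 400 or more. Without WT replicate 1 the medians were −0.43 and −0.36 for small and large subunit, −0.46 and −0.33 for near-full and shorter frames, and −0.42, −0.26 and −0.53 by level.

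Position relative to other genes was the last feature compared. Of 170 annotated pseudogenes, 26 overlapped a protein-coding gene on their own strand, 50 overlapped one on the opposite strand only and 94 overlapped none. Their median log2 fold changes were −0.85, −0.65 and −0.70, and without WT replicate 1 −0.54, −0.36 and −0.34. The host genes that could be tested had medians of −0.03 on the same strand (17 hosts, whose pseudogenes had a median of −1.08) and −0.003 on the opposite strand (38 hosts, whose pseudogenes had −0.66), and 0 hosts were called by edgeR (5 at an unadjusted p under 0.05) or by DESeq2; 0.328% of all tested genes were called in either direction. The strand setting of the counting is not given in the sources used here, so reads of a pseudogene and of an overlapping transcript on the other strand may not have been counted apart.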

How the data were processed

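Polyadenylated RNA of 2 HEMK1 KO and 2 WT HEK293 libraries was sequenced after preparation with a low-input kit, per the labels' protocols. The submitters' processing notes name hg38 and, as tools, STAR, HTSeq, Trimmomatic, FastQC and DESeq2. Not given in the sources used here were versions, annotation release, read length, strand setting and the treatment of reads with several matches. The deposited sheets hold raw whole-number counts per gene, which the authors left unnormalized, and no unassigned reads. The authors' deposited table gives a log2 fold change and an adjusted p-value per gene. Sheets were matched to libraries by name.

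Identifiers were matched without version to symbols and to GENCODE 29. The pseudogenes, lists and tests were chosen with earlier results of these data known. Low counts were removed by filterByExpr (minimum count 10) and libraries scaled by TMM (factors 0.980 to 1.02). The test was that of edgeR 4.0.16 under R 4.3.3 (quasi-likelihood, genotype as the only term, common biological coefficient of variation 0.143), with Benjamini-Hochberg adjustment over all tested genes. CPM used TMM-scaled library sizes, except in marker sums. DESeq2 1.42.0, other scaling, filters and minimums, a replicate block and leaving out each library were tried. The chi-square per degree of freedom lay between 4.74 and 7.42 for all pairs of libraries, so none repeats another. Results without a WT library for groups and families were added after seeing the data. Identity came from blastn 2.17.0, and unique stretches of 75 bases were counted among GENCODE 29 transcripts. Reading frames were set against the principal isoform's coding length. Intervals are exact (95%) and, like the floor of 3 counts, cover counting error only. The fit was tested on simulated data.

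Pseudogenes named in the text were those called, the 10 with the most counts, the top copy of each family of at least 5, the 5 highest fold changes, those at 0 in a genotype and 3 on each side of the minimum, with the parents of called, abundant and highest-fold copies. Other names, such as those with an unusual type, an identical sequence or an extreme level, were chosen after their values were seen.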

Additional observations from a re-analysis of the deposited data

How the results depend on the processing

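The count of 13 pseudogenes called lower in KO became 15 with DESeq2 size factors, 16 with DESeq2, 14 at a minimum of 20 and 9 at a minimum of 100 counts. It became 43 (and 1 higher) with no low count filter. Of the 74 tested copies with at least 90% unique 75-base stretches, 7 were called in the main fit. They are a subset of the 13, chosen after seeing the data, so this lower number is no loss of calls. When a library is left out, the lone library of its genotype is assumed to vary like the other genotype, so medians are given here. The median log2 fold change was −0.65 without KO replicate 1 and −0.86 without KO replicate 2. It was −0.39 without WT replicate 1, where every call was lost, and −1.01 without WT replicate 2. Replicate numbers did not pair the libraries (correlation of deviations −0.035). With the replicate number as a block 41 were called lower and 1 higher, with a median of −0.70. Over all tested genes, 0.281% were called lower in the main fit and 0.242% by DESeq2. For the other settings this share is not given, so the counts of 43 and 41 cannot be read as particular to these pseudogenes. For the counts of 43, 41 and 0 to 44 the cause was not tested.

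The median of −0.70 stayed between −0.65 and −0.83 under the settings that kept all libraries, and between −0.39 and −1.01 when a library was left out. The difference in share, −0.241 percentage points, ranged between −0.121 and −0.362. The median of WT replicate 2 over WT replicate 1, −0.58, was −0.54 with library totals and −0.63 at a minimum of 100 counts. The change relative to the parent, −0.70, ranged between −0.61 and −0.82 when a library was left out.

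Of the 34 named pseudogenes that were tested, the 13 called kept their call and direction under the other size factors, no filter, the block and without either KO library. DESeq2 lost 2, leaving out WT replicate 2 lost 8, and leaving out WT replicate 1 lost all 13 (adjusted p between 0.0516 and 0.275). When a library was left out, log2 fold changes of pseudogenes that were not called crossed 0. Without WT replicate 1 this held for RPL5P34 (range −0.73 to 0.094), RPL7AP6 (−0.80 to 0.034), RPL7P1 (−0.67 to 0.31), RPS3AP26 (−0.82 to 0.036) and RPSAP19 (−1.03 to 0.11). RPS3AP6 ranged between −0.30 (without KO replicate 1) and 0.77 (without WT replicate 1), with −0.24 without WT replicate 2. RPL21P1 ranged between −0.15 (without WT replicate 2) and 0.56 (without WT replicate 1), with −0.016 without KO replicate 2. Depth limits the low copies: the bound for a pseudogene at 0 in KO was at most 21.9-fold.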
